A study of Mus musculus with 8 samples.

Results

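The genes described here are 7 mouse genes that bind, carry, make, or degrade retinoids: *Crabp1*, *Crabp2*, *Rbp4*, *Stra6*, *Aldh1a1*, *Aldh1a2*, and *Cyp26b1*. They were measured by every array probe whose RefSeq accession maps to 1 of these symbols, which gave 7 probes, 1 for each gene, among 55681 probes and 20284 named genes. Of the 7 probes, 6 were flagged as well above background on both arrays in 1 nucleus or more, and the probe of *Aldh1a2* was not. The genes were chosen with their signals in these 8 arrays known, so their levels, ratios, and order over the nuclei are given as a description without a test.

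Expression was measured in 4 nuclei of the hypothalamus, the arcuate (Arc), ventromedial (VMH), and dorsomedial (DMH) nuclei and the lateral hypothalamus (LH), to find genes selective for the DMH. The tissue was cut by laser microdissection from female mice of 3 months, of the strain C57BL/6 in the labels and C57BL/6J in the methods, for which no treatment is named, the methods name 2 mice, and every nucleus has 2 arrays. Groups therefore differ in the nucleus, and strain, sex, and age are shared by all of them. The RNA was amplified over the whole transcriptome before labelling, neither the labels nor the methods tell which arrays share a mouse, and the replicate number coincides with the row of the slide. Values are scaled signals, that is, the deposited intensity of a spot brought to the same 75th percentile on every array. A scaled signal is comparable for the same probe between arrays and not between probes. A signal counts as measured where the scanner software called it well above background.

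Retinol travels in blood bound to retinol binding protein and enters cells through the receptor STRA6. Inside the cell it is oxidized to retinal and then, by retinaldehyde dehydrogenases, to retinoic acid, which binds nuclear receptors of the RAR and RXR families and is removed by CYP26 enzymes. The cellular binding proteins CRABP1 and CRABP2 hold retinoic acid in the cytoplasm, and in the adult hypothalamus tanycytes, the ependymal cells along the third ventricle, are a known site of retinoid handling.

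The 3 genes with both Arc arrays above all other arrays were *Crabp1*, *Rbp4*, and *Cyp26b1*, and stretches of their promoters are shown because these genes had their highest signal in the same nucleus. Each line gives 250 bases before the RefSeq start in the mouse build GRCm38.p6, in the direction of transcription, at chr9:54764498-54764747 on the plus strand for *Crabp1*, chr19:38124812-38125061 on the minus strand for *Rbp4*, and chr6:84593811-84594060 on the minus strand for *Cyp26b1*. Capitals mark the GC box GGGCGG and the TATA motif TATAAA, each searched on both strands, so that CCGCCC is a GC box read on the other strand.
Crabp1: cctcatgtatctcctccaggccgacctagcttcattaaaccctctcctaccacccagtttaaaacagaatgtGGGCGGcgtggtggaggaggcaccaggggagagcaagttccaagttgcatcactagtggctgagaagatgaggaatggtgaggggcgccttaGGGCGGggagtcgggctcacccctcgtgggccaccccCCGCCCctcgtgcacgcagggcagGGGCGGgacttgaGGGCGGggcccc
Rbp4: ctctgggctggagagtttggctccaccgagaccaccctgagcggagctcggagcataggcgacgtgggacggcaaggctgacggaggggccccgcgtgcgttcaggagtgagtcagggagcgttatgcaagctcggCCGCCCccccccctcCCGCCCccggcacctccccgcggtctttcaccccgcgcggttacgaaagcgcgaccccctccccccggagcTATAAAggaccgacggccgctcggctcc
Cyp26b1: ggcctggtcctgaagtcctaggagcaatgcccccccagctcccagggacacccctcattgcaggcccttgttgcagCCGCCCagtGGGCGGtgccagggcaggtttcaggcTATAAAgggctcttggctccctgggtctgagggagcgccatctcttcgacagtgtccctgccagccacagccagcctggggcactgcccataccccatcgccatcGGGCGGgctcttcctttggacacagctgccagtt
The window of *Crabp1* held 5 GC boxes and no TATA motif, that of *Rbp4* held 2 GC boxes and a TATA motif that began at position -28 from the start, and that of *Cyp26b1* held 3 GC boxes and a TATA motif at position -139. Their GC contents were 63.6%, 70.8%, and 64.8%, beside a median of 52.4% over 32851 windows of the same 250 bases. A GC box was present in 32.7% of those windows and a TATA motif in 12.4%. *Rbp4* had a second annotated start with a window of 40.8% GC that held neither motif. The half-sites AGGTCA and AGTTCA, which retinoid receptors are known to bind, were found in 24.2% of all windows, and direct repeats of them with 1 to 5 bases between were found in 0.174%. They occurred in 0 of the 11 windows of the 6 genes that the table of promoters lists (*Crabp2* had no entry), which says only that these letters are not in these windows.

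Markers of the labelled nuclei were counted by the brightest probe of each gene and called at an adjusted p under 0.05 in limma. All 6 Arc genes, *Agrp* among them (50101 in the Arc and 402 to 530.1 in the other nuclei), were higher in the Arc (all probes, 2.14%), and *Nr5a1* was higher in the VMH (2.27%). *Fezf1* was highest in the VMH (6785) but passed the filter on background through the VMH alone, so its call there is not support. The LH markers *Hcrt* and *Pmch* were called higher in both the LH and the DMH (all probes, 3.89% and 0.166%), with *Hcrt* at 111361 in the LH and 53611 in the DMH, and of the 4 DMH genes that the study chose on these arrays 3 were higher in the DMH, with *Grp* varying most (3661 in the DMH), which is no independent evidence, all the more as the 4 passed the filter through the DMH alone. LH2 correlated best with DMH2 (0.954) and less with LH1 (0.938) over probes, whereas each of the other arrays correlated best with its partner from the same nucleus. The arrays had 59305 spots each, with 47.1% to 52.7% of the spots well above background.

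Both Arc arrays lay above all other arrays for 3 of the 6 probes in the filter, beside 8.61% of all 28894 probes that passed it. Both LH arrays were above the rest for 2, *Aldh1a1* and *Stra6* (all probes, 12.1%), and those of the VMH and of the DMH for 0 (8.09% and 2.19%). In the other direction, both VMH arrays were below the rest for *Crabp1* and *Rbp4* (7.32%), both DMH arrays for *Aldh1a1* (2.74%), both LH arrays for *Crabp2* (9.21%), and both Arc arrays for 0 (10.9%). These separations belong to the values that chose the genes, and nothing is read from them. The study's criterion for an enriched gene, a signal at least 10-fold that of each other nucleus, was met by *Crabp1* and *Cyp26b1*, both in the Arc, where 0.111% of all probes met it (VMH 0.0485%, DMH 0.0173%, LH 0.0519%). *Cyp26b1* passed the filter on background through the Arc alone, so that its place among the 2 is a description. It is the gene just inside this criterion, with 14.6-fold, and *Rbp4* the one just outside, with 3.65-fold. Fewer cells of a type and less RNA in each cell cannot be told apart in such tissue samples, here or in any difference below.

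*Crabp1*, a cytoplasmic binding protein that holds retinoic acid and is linked to its breakdown, had scaled signals of 9879 on Arc1 and 11601 on Arc2 (probe A_52_P185907). The signals were 300.5 and 355 in the LH, 232 and 185 in the DMH, and 148 and 109 in the VMH. All 8 arrays measured it, and no pair of nuclei overlapped. The mean in the Arc was 10740 ± 1217 (SD, n = 2), which was 32.7-fold that of the LH, 51.4-fold that of the DMH, and 83.7-fold that of the VMH. On the log2 scale the Arc exceeded the LH by 5.03 (SE 0.25). The 3 other nuclei kept an order among themselves as well, in which the LH exceeded the DMH by 0.66 on the log2 scale and the DMH exceeded the VMH by 0.71. Without LH1 or LH2 the ratio of the Arc to the LH was 30.2 and 35.7. With the normexp background correction the ratios of the Arc to the LH and to the VMH were 20.8 and 34.5.

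*Crabp2*, which is known to carry retinoic acid to its receptors, had another order of nuclei (probe A_55_P2059432). Its scaled signals were 6489 and 4195 in the Arc, 5879 and 4774 in the VMH, 4015 and 3349 in the DMH, and 1943 and 3222 in the LH, and all 8 arrays measured it. The Arc and the VMH overlapped, with means of 5342 ± 1622 and 5326 ± 781 (SD, n = 2), while neither overlapped with the DMH or the LH. On the log2 scale the VMH exceeded the LH by 1.08 and the DMH by 0.53 (SE 0.33 for each), so that the DMH lay between them. The ratio of the Arc to the LH was 2.07 on all arrays, 1.66 without LH1, and 2.75 without LH2. The VMH, in which the signal of *Crabp1* was lowest, was therefore among the 2 nuclei with the highest *Crabp2*.

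*Rbp4*, the retinol binding protein of blood plasma, had nearly equal scaled signals of 2300.2 and 2329 in the Arc (probe A_55_P2006118). They were 521 and 747 in the LH, 458 and 720.3 in the DMH, and 121 and 140 in the VMH, where the first of the 2 arrays was not well above background. The Arc was highest and the VMH lowest without overlap, and the DMH and the LH overlapped. The Arc mean of 2315 ± 20.6 (SD, n = 2) was 3.65-fold that of the LH, 3.93-fold that of the DMH, and 17.7-fold that of the VMH. The Arc exceeded the LH by 1.89 on the log2 scale and the VMH by 4.15 (SE 0.29 for each), whereas the LH exceeded the DMH by 0.12. Leaving out LH2 placed the DMH second, with a ratio of 3.93 of the Arc to it, and the normexp correction lowered the ratio to the VMH to 7.47.

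*Stra6*, the membrane receptor for RBP4 that takes up retinol, varied least (probe A_55_P1973451). Its scaled signals were 283 and 186 in the Arc, 222 and 246 in the VMH, 204 and 193 in the DMH, and 290.2 and 344 in the LH, all of them measured. Both LH arrays were above the 6 others, the lower of them by little, and the Arc overlapped with the VMH and the DMH. The LH mean of 317 ± 38.3 (SD, n = 2) was 1.35-fold that of the Arc, and its log2 difference was 0.46 from the Arc and 0.44 from the VMH (SE 0.25). The ratio was 1.12 without Arc2, 1.47 without LH1, and 1.24 without LH2. The receptor and its ligand thus had different highest nuclei, the LH for *Stra6* and the Arc for *Rbp4*.

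**Figure D1:**
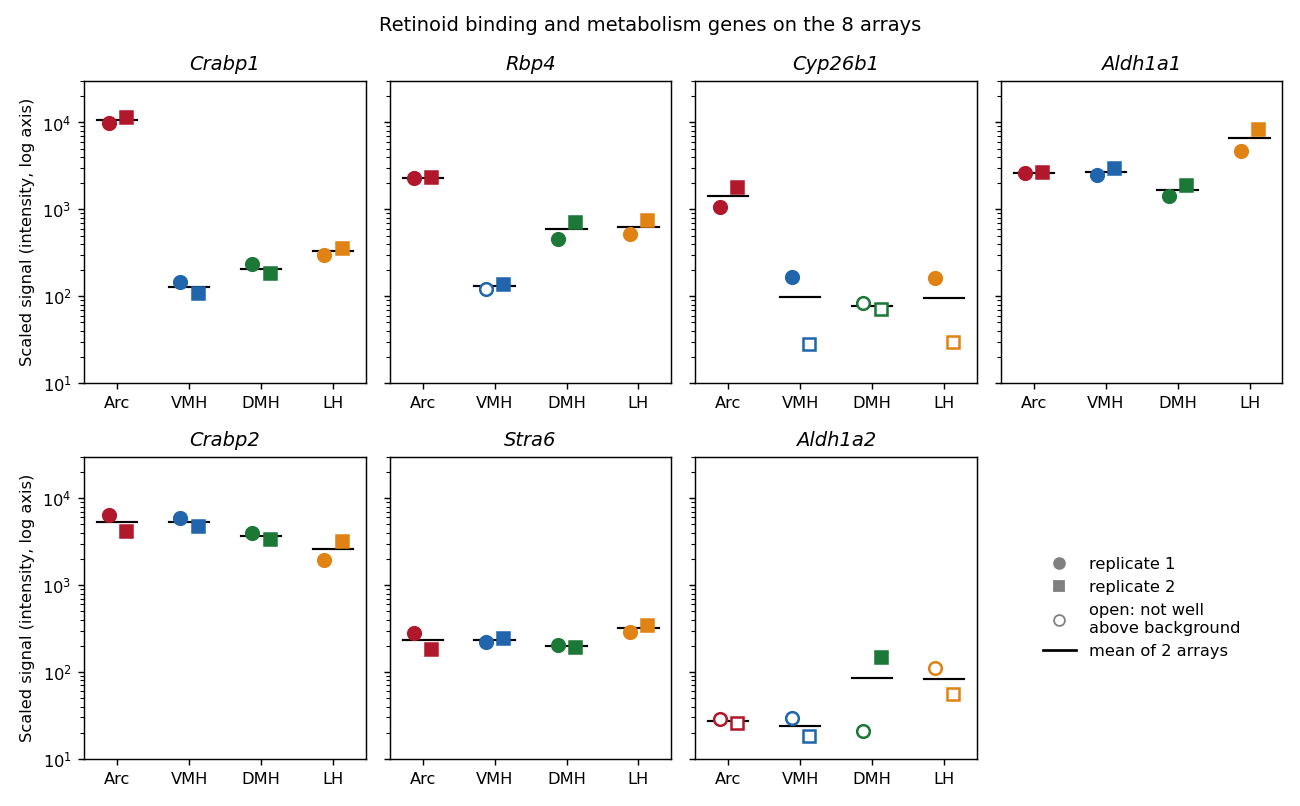
Scaled signal intensity of the 7 retinoid genes on a log axis, by nucleus. Circles are replicate 1, squares replicate 2, open symbols arrays on which the probe was not well above background, and bars the mean of 2 arrays. *Crabp1*, *Rbp4*, and *Cyp26b1* are highest in the Arc, *Aldh1a1* and *Stra6* in the LH, and *Crabp2* lowest in the LH, while *Aldh1a2* was measured on 1 array.

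Of the enzymes that make retinoic acid, *Aldh1a1*, a retinaldehyde dehydrogenase, was measured on all 8 arrays (probe A_51_P334942). Its scaled signals were 4645 and 8520 in the LH, 2469 and 2959 in the VMH, 2611 and 2680 in the Arc, and 1417 and 1891 in the DMH. The LH was highest and the DMH lowest without overlap, and the Arc lay inside the range of the VMH. The LH mean of 6583 ± 2740 (SD, n = 2) was 2.43-fold that of the VMH, 2.49-fold that of the Arc, and 3.98-fold that of the DMH. The LH exceeded the VMH by 1.22 on the log2 scale (SE 0.32). The 2 LH arrays differed more from each other than the 2 arrays of any other nucleus did for this gene, and the log2 difference was 0.78 without LH2 and 1.66 without LH1.

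*Aldh1a2*, a second retinaldehyde dehydrogenase, known in the adult brain mainly from the meninges, was well above background on 1 array, DMH2, with a scaled signal of 148 (probe A_52_P58145). On the other DMH array it was 21.0, and on the remaining arrays it was 29.0 and 25.8 in the Arc, 29.5 and 18.3 in the VMH, and 112 and 55.7 in the LH, none of them measured. No nucleus therefore has a level or a fold change for this gene, and an array signal near background is a bound and does not show absence.

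*Cyp26b1*, the enzyme that hydroxylates retinoic acid and so removes it, had scaled signals of 1065 and 1799.6 in the Arc (probe A_51_P501844). In the other nuclei 2 of 6 arrays measured it, VMH1 with 168 and LH1 with 164. The 4 arrays without a measured level gave 27.9 on VMH2, 84.6 and 72.0 in the DMH, and 29.5 on LH2. Both Arc arrays were above all others, and the VMH, DMH, and LH overlapped. The Arc mean of 1432 ± 520 (SD, n = 2) was 14.6-fold that of the VMH and 14.8-fold that of the LH, each with 1 of its 2 arrays not well above background, and at least 14.7-fold that of the DMH, where neither array measured the gene. The SE of the log2 differences, which were 4.34 from the VMH and 4.31 from the LH, was 1.00, the widest among the 6 probes. The ratio to the next nucleus fell under the 10-fold criterion without VMH2 (8.50) and without LH2 (8.74), since then the measured array of that nucleus stood alone. It was also under 10-fold with dim signals raised (9.68) and with the normexp correction (4.77).

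**Figure D2:**
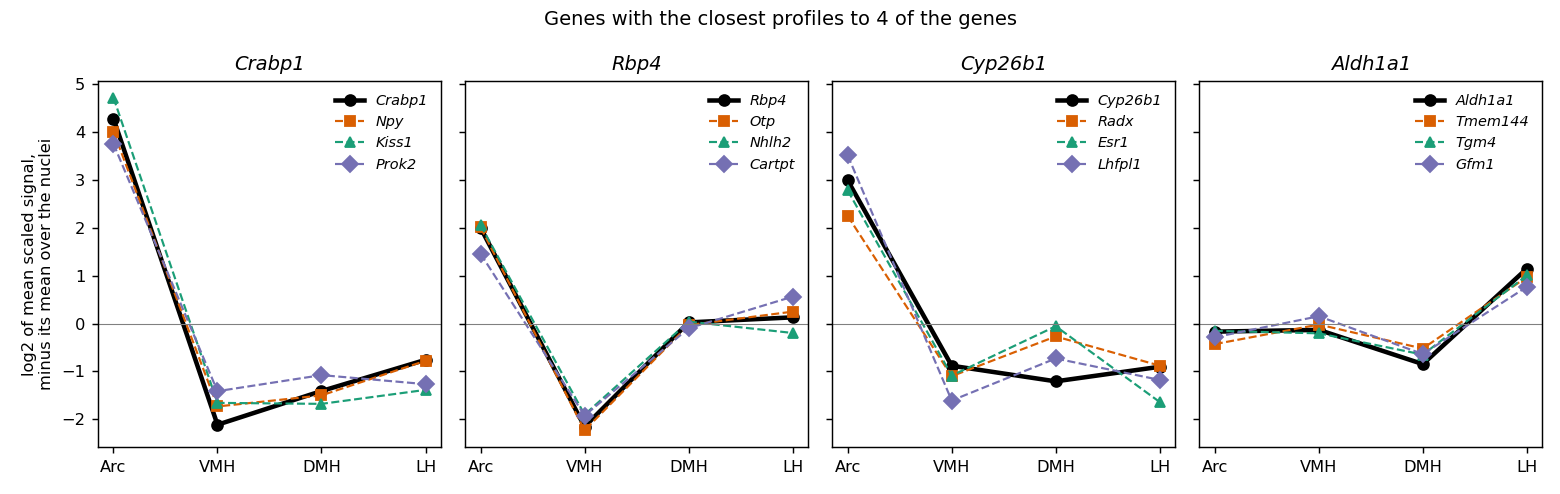
Profiles over the nuclei of 4 retinoid genes (black) and, for each, the 3 other named genes with the most similar signals (colors). The y axis is the log2 of the mean scaled signal of 2 arrays, minus the mean of these values over the nuclei, so that only the shape is compared. *Crabp1* ran with *Npy* and *Kiss1*, and *Rbp4* with *Otp*, both with their peak in the Arc.

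To place these profiles, each was set against 17160 probes of named genes, and likeness was measured as the root mean square difference of log2 signals over the 8 arrays, each probe centred on its own mean. The 3 genes closest to *Crabp1* were *Npy* (0.38), *Kiss1* (0.50), and *Prok2* (0.61), the first a peptide that promotes feeding, the second a peptide that drives gonadotropin release, and the third a prokineticin. For comparison, the log2 signals of *Crabp1* themselves had an SD of 2.52 over the arrays. The means of *Prok2* outside the Arc were 26.8 (VMH), 33.8 (DMH), and 29.7 (LH). These lay under the lowest measured signals of the arrays (79.3 to 132), so its likeness there rests on signals near background. *Npy* had mean scaled signals of 25394 (Arc), 923 (LH), 559.6 (DMH), and 477 (VMH), the same order of nuclei as *Crabp1*. The genes closest to *Rbp4* were *Otp* (0.32) and *Nhlh2* (0.35), which encode transcription factors of hypothalamic neurons, and *Cartpt* (0.42), which encodes the CART peptides. *Otp* was at 1870.1, 99.2, 454, and 552 in the Arc, VMH, DMH, and LH, so it shared the high Arc, the low VMH, and the DMH and LH between them.

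*Cyp26b1* had less close neighbours, *Radx* (0.68), *Esr1* (0.83), which encodes the estrogen receptor alpha, and *Lhfpl1* (0.86). Outside the Arc most of the signals compared here lay under the lowest measured signals of the arrays (79.3 to 132), so that the order of these 3 rests on signals near background. *Esr1* had mean scaled signals of 949 (Arc), 65.2 (VMH), 133 (DMH), and 44.5 (LH). The closest to *Aldh1a1* were *Tmem144* (0.25), *Tgm4* (0.25), and *Gfm1* (0.29), each with its highest mean in the LH and its lowest in the DMH. *Crabp2* (SD 0.51) and *Stra6* (SD 0.30) varied less over the arrays. The nearest genes were *Rnf224* (0.099) and *Doxl2* (0.15) for *Crabp2*, and *Dipk2a* (0.10), *Mtbp* (0.11), and *Lmnb2* (0.12) for *Stra6*. The 8 arrays of a probe share the tissue pieces and the amplification of every other probe, and these values are a description without a test.

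The rest of the retinoid pathway was represented by a list of 47 other genes with 54 probes, of which 28 probes of 23 genes passed the filter on background. In the limma F-test over the 4 nuclei, 3 of the 28 probes passed an adjusted p of 0.05, beside 8.34% of all probes, and 14 had an unadjusted p under 0.05, beside 24.6% of all probes. When each nucleus was set against the mean of the other 3, 2 probes were higher and 2 lower in the Arc (all probes, 2.14% and 4.12%), and 1 was higher and 0 lower in the VMH (2.27% and 2.14%). The 2 higher in the Arc, *Ttr* and *Rarres1*, passed the filter through the Arc alone. In the DMH 0 of the 28 passed this limma test in either direction (0.166% and 0.249%), and 1 was higher and 2 lower in the LH (3.89% and 2.45%). At an unadjusted p under 0.05, 5 were higher and 6 lower in the Arc (all probes, 8.80% and 12.2%), and 2 higher and 7 lower in the VMH (8.86% and 9.07%). In the DMH 1 was higher and 3 lower (3.33% and 3.78%), and in the LH 7 were higher and 4 lower (13.0% and 11.9%). The median log2 difference of the list was 0.01 (Arc), -0.19 (VMH), 0.06 (DMH), and 0.15 (LH), where the medians of all probes were 0.05, 0.02, -0.01, and -0.02.

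Among the carriers, 6 of 9 probes were tested and 1 was called in the F-test, that of *Ttr*, which encodes transthyretin, the plasma partner of RBP4. Its scaled signals were 209 and 251 in the Arc, 26.0 and 58.1 in the VMH, 94.3 and 161 in the DMH, and 56.7 and 59.7 in the LH, and the VMH and LH arrays were not well above background, so that the Arc was at least 2.21-fold the VMH and at least 2.24-fold the LH. *Ttr* was highest in the Arc, the nucleus in which *Rbp4* was highest too. It passed the filter through the Arc alone, so its call in the F-test (adjusted p = 0.0327) and its count as higher in the Arc are not support for a high Arc. The F-test call was lost without Arc1, Arc2, VMH1, or DMH2 (adjusted p up to 0.146 without Arc2) and under 4 of 9 other alternatives (up to 0.153). *Fabp5*, which can carry retinoic acid, differed by 0.76 on the log2 scale between the LH and the other nuclei and did not pass the test (SE 0.18, adjusted p = 0.0593).

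Of the enzymes between retinol and retinal, 6 of 17 probes were tested, and *Rdh5*, a retinol dehydrogenase, was called in the F-test (adjusted p = 0.0423). Its scaled signals were 567 and 423 in the Arc, 766 and 884 in the VMH, 1105 and 1272 in the DMH, and 1044 and 1125 in the LH. *Rdh5* was lower in the Arc than in the other nuclei (log2 difference -1.06, SE 0.19, adjusted p = 0.0221), whose arrays never reached down to those of the Arc. Leaving out any of the Arc, VMH, and DMH arrays ended both calls, with an adjusted p of up to 0.191 for the Arc and 0.204 for the F-test without Arc2. The F-test call was lost as well with no scaling (0.0610), no filter (0.0902), and the replicate block (0.0692). *Rdh11*, chosen after its values were seen, was lower in the Arc as well (log2 difference -0.79, SE 0.16, adjusted p = 0.0342), with means of 638 (Arc), 1118 (VMH), 995 (DMH), and 1228 (LH), and its call was lost without the same arrays (up to 0.256 without Arc1). *Rdh10*, a main retinol dehydrogenase of the embryo, was measured on 0 of 8 arrays. The same held for *Aldh1a3* and *Aldh8a1*, the other enzymes of the list that can make retinoic acid, and for *Cyp26a1* and *Cyp26c1*, the paralogs of *Cyp26b1*, so that of the genes that make and remove retinoic acid *Aldh1a1* and *Cyp26b1* passed the filter, and *Aldh1a2* was measured on DMH2 alone. Of the genes for storage and carotenoid cleavage, 2 of 6 probes were tested, and 0 passed the limma F-test, also without adjustment.

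**Figure D3:**
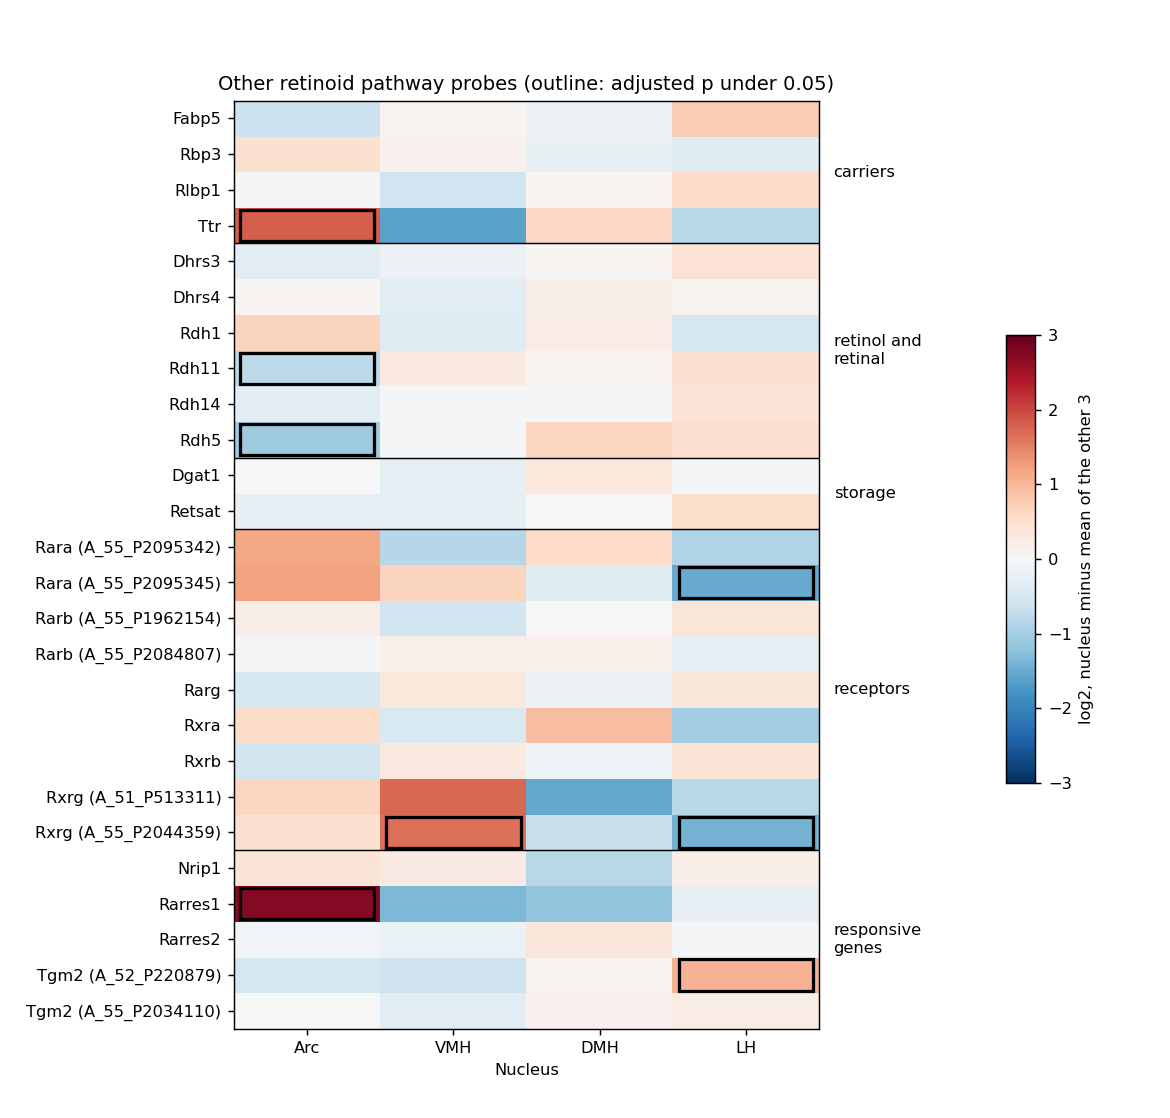
Log2 difference of each nucleus from the mean of the other 3 for 26 of the 28 tested probes of the retinoid pathway list, grouped by role, in color from -3 (blue) to 3 (red). Outlines mark differences with a limma adjusted p under 0.05. There are 4 outlines in the Arc, 1 in the VMH, 3 in the LH, and 0 in the DMH.

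The receptors were the most completely measured group, with 9 of 10 probes tested and 1 called in the F-test. *Rxrg*, which encodes the retinoid X receptor gamma, had scaled signals of 5516 and 5176 in the VMH, 2655 and 3124 in the Arc, 1479 and 1717 in the DMH, and 1475 and 799 in the LH (probe A_55_P2044359, F-test adjusted p = 0.0173). It was higher in the VMH than in the other nuclei by 1.65 on the log2 scale (SE 0.25, adjusted p = 0.0163) and lower in the LH (log2 difference -1.42, adjusted p = 0.0240). The F-test call was lost without Arc1, Arc2, VMH1, or VMH2 (adjusted p up to 0.0911 without VMH1), the VMH call without Arc1, VMH1, or VMH2 (up to 0.159 without VMH1), and the LH call without any of the Arc, VMH, and DMH arrays (up to 0.0676 without Arc2). The second *Rxrg* probe, A_51_P513311, had means of 11520 (VMH), 6575 (Arc), 3052 (LH), and 2401 (DMH), with the VMH highest and the Arc second as for the first, and it just missed the threshold (F-test adjusted p = 0.0520). The VMH, where *Crabp1* and *Rbp4* were lowest, thus had the highest signal of this receptor on both probes.

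*Rara*, the retinoic acid receptor alpha and chosen after its values were seen, was counted as lower in the LH on the probe A_55_P2095345 (adjusted p = 0.0395), with 46.9 and 68.3 on the LH arrays, neither of them measured, so that the Arc was at least 2.29-fold and the VMH at least 1.72-fold the LH. Leaving out LH2 alone among the 8 arrays kept this call, and without LH1 the adjusted p was 0.114. It was lost under 5 of 9 other alternatives, with dim signals raised (0.203) and normexp (0.356) among them. Its other probe had means of 643 (Arc), 228 (VMH), 501 (DMH), and 224 (LH) and did not pass (adjusted p in the LH of 0.120). Among genes known to respond to retinoic acid, 5 of 8 probes were tested and 0 passed the limma F-test, 2 of them with an unadjusted p under 0.05. *Rarres1*, chosen after its values were seen, was measured in the Arc alone, with 228 and 357, which was at least 2.74-fold the VMH, 3.02-fold the DMH, and 2.79-fold the LH. It passed the filter through the Arc alone, so its count as higher in the Arc is not support for that direction. The Arc call of *Rarres1* was also lost when Arc1, Arc2, VMH2, or DMH1 was left out. *Tgm2*, a transglutaminase also chosen after its values were seen, was higher in the LH on the probe A_52_P220879 (log2 difference 1.05, SE 0.21, adjusted p = 0.0360), while its other probe had an F-test adjusted p of 0.828. Among the arrays left out, its call was kept without DMH2 alone and had an adjusted p of up to 0.0942 (without LH1). It was also lost with no scaling (0.135), no filter (0.0732), and the replicate block (0.0514).

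Markers of other cells also differed between the nuclei. Of 7 tanycyte genes, 6 were called in the F-test and 5 were higher in the Arc (all probes, 8.34% and 2.14%). Of the 5, *Rax* (1549 in the Arc, and measured on 1 of the 6 other arrays) and the brightest probe of *Col23a1*, A_55_P2086978, passed the filter through the Arc alone, so these calls are not support. The second *Col23a1* probe, A_52_P441036, was measured in the VMH and the DMH too and was called higher in the Arc (adjusted p = 0.0275). *Gpr50*, also 1 of the 5, was highest in the DMH (1936 there and 871 in the Arc) and called higher there too (adjusted p = 0.00513). The summed signal of the tanycyte list was 8421 to 10582 in the Arc, 3710 to 4280 in the DMH, 3086 to 3201 in the LH, and 1434 to 1691 in the VMH. It was highest in the Arc and lowest in the VMH, as *Crabp1* and *Rbp4* were. Between these it was higher in the DMH than in the LH, whereas the means of *Crabp1* and *Rbp4* were higher in the LH. Without *Rax* and *Col23a1*, left out after the data were seen, the sums of the other 5 genes were 5667 to 7492 (Arc), 3325 to 3816 (DMH), 2945 to 3033 (LH), and 1040.4 to 1342 (VMH). Genes of dopamine neurons had their highest sums in the Arc too, with 3 of 4 called higher there (all probes, 2.14%). *Th* was among them (33147 in the Arc and 3571 to 22027 elsewhere). The brightest probe of the remaining gene, *Ddc*, was highest in the VMH (15201, and 12901 in the Arc) and was not called, while its other probe was highest in the Arc (597). The sums were 49345 to 57799 in the Arc, 29762 to 41227 in the DMH, 21117 to 27438 in the LH, and 18648 to 20295 in the VMH. *Slc6a3*, another of the 3, passed the filter through the Arc alone (3480), with 1 of the 6 other arrays measured. All 6 Arc markers were higher in the Arc as well. The part of tanycytes, dopamine neurons, and Arc neurons in the signals of *Crabp1*, *Rbp4*, *Cyp26b1*, and *Ttr* was not tested.

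In the LH, all 6 oligodendrocyte genes were higher (all probes, 3.89%), with sums of 71044 to 78065 there, 23702 to 29827 in the VMH, 19672 to 21785 in the DMH, and 8959 to 13845 in the Arc. *Klk6* (3793 in the LH), 1 of the 6, was measured in the LH alone and passed the filter through it, so its call is not support. These counts rest on the brightest probe of each gene, and the 2 other probes of *Mbp* had their lowest means in the LH (1258 and 2464) and did not pass (adjusted p in the LH of 0.0591 and 0.233). Of 5 tested endothelial genes, 2 were higher in the LH (all probes, 3.89%). *Slco1c1* was among them (806 in the LH and 269 to 425 elsewhere), and the sums were 13886 to 16967 in the LH and 6419 to 10789 in the other nuclei. The part of these cells in the signals of *Aldh1a1*, *Stra6*, *Tgm2*, and *Crabp2*, the last of which was lowest in the LH, was not tested. Of the genes of leptomeninges and fibroblasts, which are a known site of *Aldh1a2*, 6 of 10 were tested and 0 called (2 at an unadjusted p under 0.05), *Slc22a6* was not measured on any array, and the sums were 3235 to 8056 in the Arc and 2515 to 4526 in the other nuclei. Of the 4 tested choroid plexus genes, 2 were called in the F-test (all probes, 8.34%), *Clic6* highest in the VMH (3265) and lowest in the LH (569) and *Kl* highest in the DMH (372) and low in the VMH (114), while *Kcne2* was not measured, and the ependymal genes *Foxj1* and *Tmem212* were not measured either. For astrocytes 1 of 5 genes was called in the F-test, *Gfap*, with 5036 (Arc), 1256 (VMH), 2251 (DMH), and 2761 (LH). *Aldh1l1*, by contrast, was lower in the Arc (3825, with 6372 to 9609 elsewhere, adjusted p = 0.0323), and *Slc1a3*, which did not pass, was at 4489 in the Arc and 6458 to 7620 elsewhere. For microglia 0 of 4 were called in the limma F-test, 2 of them with an unadjusted p under 0.05 on at least 1 probe. Of the paraventricular genes, which would mark tissue from a neighbouring nucleus, *Crh* was called (means of 27.7, 157, 2284, and 4277 in the Arc, VMH, DMH, and LH), *Oxt* and *Avp* were not, and *Sim1* was not measured. *Oxt* and *Avp* differed between the arrays of a nucleus, *Oxt* with 8332 on LH2 and 109 on LH1 and with 6559 on Arc1 and 848 on Arc2, and *Avp* with 2432 on LH2 and 279 on LH1. LH2 is also the array with the higher *Aldh1a1*, and the part of paraventricular tissue in that signal was not tested. The methods describe a check of the dissected pieces by real-time RT-PCR of *Agrp*, *Nr5a1*, *Hcrt*, and *Crh*, and report that it found no contamination. On these arrays, however, *Crh* was measured in the DMH and the LH, and *Hcrt* was at 53611 in the DMH. The reason for this difference was not tested.

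**Figure D4:**
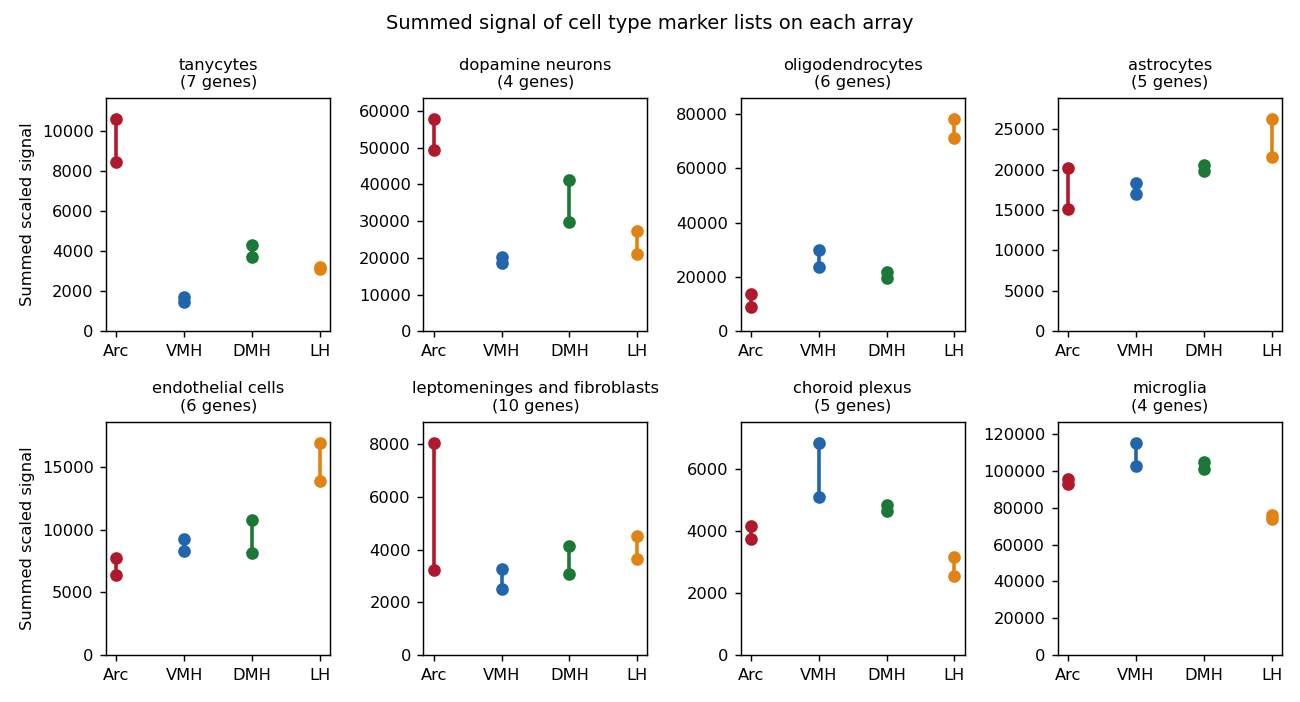
Summed scaled signal of the genes of 8 marker lists on each array, on linear axes that start at 0. Each point is an array, and the line joins the 2 arrays of a nucleus. The tanycyte and dopamine neuron lists are highest in the Arc, and the oligodendrocyte and endothelial lists in the LH.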

How the data were processed

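RNA of laser-microdissected nuclei was hybridized in 1 color to 8 Agilent arrays on 1 slide. The authors deposited the processed intensity of each spot from Agilent Feature Extraction (10.7.3.1 in the file headers, 11.5.1.1 in the submitters' processing notes), background-subtracted, detrended, and not scaled between arrays. A deposited table holds the same intensities per probe, equal to within 0.51 for at least 99.7% of values. The labels give Cy3 and the methods Cy5, and the red channel was used.

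Outlier spots were left out (126 to 364 an array, 0 saturated), spots averaged per probe, and arrays scaled to a common 75th percentile. A probe was measured on an array where the software called it well above background. limma 3.58.1 (R 4.3.3) fitted a mean per nucleus to log2 intensities of the 28894 probes that some nucleus measured on both of its arrays, with 4 residual and 3.02 prior degrees of freedom, and p values were adjusted by Benjamini and Hochberg over all of them. The F-test over the nuclei and each nucleus against the mean of the other 3 were used, with a threshold of 0.05. SE are those of this fit. Ratios are of arithmetic means. Where neither array of the dimmer nucleus measured a probe, the ratio is a lower bound from mean log2 signals, set against the lowest measured signal of those arrays or the probe's own signal where higher. The sources do not say which arrays share a mouse, so p values measure only the spread between these samples, which may be technical, and the number of arrays limits the precision.

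Gene names came from the RefSeq accessions of GRCm38.p6, which named 94.3% of 28390 probes with one. The genes and lists were chosen with earlier results of these data known. Named genes are the 7 members, pathway genes past the F-test and at most 6 others that are the sole measured gene of a step or a close paralog, the 3 nearest profiles of each member, and for marker lists the gene of widest range. Pathway genes outside this rule are marked as chosen after their values were seen. Other genes named from the marker lists carry no such mark, though they too were chosen with their values known. Alternatives were no scaling, quantile normalization, normexp with an offset of 50, the deposited table, no filter or one that required all 8 arrays, keeping outlier spots, raising dim signals to the lowest measured one, the replicate block, leaving out each array, trended and robust moderation, and one-way ANOVA with Tukey-Kramer. The tests were checked on simulated data. Some genes of the lists are not reported here, in the text or the plots.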

Additional observations from a re-analysis of the deposited data

How the results depend on the processing

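The highest nucleus of *Crabp1*, *Rbp4*, *Cyp26b1*, *Aldh1a1*, and *Stra6* was the same under every alternative that changed the signals or left out an array. The log2 difference of *Crabp2*, VMH minus Arc, was 0.02 and turned to -0.070 with quantile normalization and, with single arrays left out, ran from -0.29 (without Arc replicate 2) to 0.34 (without Arc replicate 1), with -0.13 without VMH replicate 1. The normexp correction lowered the log2 differences of *Crabp1* to 4.38, *Cyp26b1* (Arc minus DMH) to 2.40, and *Rbp4* to 1.57. The 2 genes past the 10-fold criterion became 1 (*Crabp1*) with dim signals raised, with the filter on all 8 arrays, and with normexp, and 1 to 2 when single arrays were left out. Without scaling the median of all probes was -0.26 in the Arc and 0.33 in the DMH, and no pathway call changed sign under any alternative.

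Of the pathway counts, that of the F-test (3) was 6 with dim signals raised, 6 with the filter on all 8 arrays, 6 with trended and robust moderation, 1 with no filter, 0 with one-way ANOVA, and 0 to 5 with arrays left out. The Arc count (4) was 7 with trended and robust moderation and 0 to 6 with arrays left out. The VMH count (1) was 2 with dim signals raised, the filter on all 8 arrays, no scaling, and trended and robust moderation, 3 with normexp, and 0 to 4 with arrays left out. The LH count (3) was 0 to 2 and the DMH count (0) 0 to 1 with arrays left out. Beside the arrays left out, calls against the other nuclei were lost for *Ttr* with no scaling (adjusted p = 0.0842), quantile normalization (0.0581), and dim signals raised (0.0683), for *Rdh11* with no filter (0.0838) and the replicate block (0.0537), for *Rara* under 5 of 9 (up to 0.356), and for *Tgm2* under 3 of 10 (up to 0.135), while those of *Rxrg* and *Rdh5* were kept. One-way ANOVA gave 12 probes with an unadjusted p under 0.05. Tukey-Kramer tests gave 20 pairs with a p under 0.05 on 11 probes. The cause of these changes was not tested. With an array left out, the lone array of a nucleus is assumed to vary as the others do.

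With the replicate number as a block the LH count was 1, the VMH count 2, the F-test count 2, and the Arc count 3. The deviations of same-numbered arrays correlated between -0.03 and 0.26 over the pairs of nuclei, so the numbers were not taken to pair the samples. Probes near background, such as those of *Aldh1a2* and of *Cyp26b1* outside the Arc, are limited by the signal over background.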
